A study of Mus musculus with 6 samples.

Results

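miR-103 and miR-107 are near-identical microRNAs (miRNAs), short RNAs that pair with messenger RNAs through a seed near their 5′ end and lower the output of their targets. They were taken as the 2 entries on the array whose names are exactly mmu-miR-103 and mmu-miR-107, out of 690 mouse miRNAs. The pair was selected on earlier results of these same arrays, in which levels and differences between zones were already known. Their levels and zone differences are therefore given as a description, with no test of their own. The study measured miRNAs in femoral growth plate cartilage, microdissected from C57BL/6 mice 12 days old, with no treatment or mutation named for any group. It has 6 arrays, 2 each for the proliferative, the prehypertrophic and the hypertrophic zone, the successive layers through which chondrocytes divide, stop dividing and enlarge. Each array received 100 ng of RNA pooled from 5 growth plates, so a value is an average over several plates, and the labels do not say which animals entered which pool. In such tissue RNA, fewer cells that express a miRNA and less of it per cell cannot be told apart.

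In mammals miR-103 and miR-107 are made from introns of the pantothenate kinase genes, whose enzymes carry out the first step of coenzyme A synthesis. They are known as regulators of insulin sensitivity in liver and fat and as repressors of Dicer, the nuclease that cuts miRNA precursors. They also share part of their seed with the family of miR-15 and miR-16, which targets cell cycle genes. miR-103 is abundant in many tissues and is often used as a reference RNA in PCR assays.

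The mature sequences below, from RefSeq (GRCm38.p6), are shown because the whole pair differs by 1 base of 23 outside the seed. Capitals mark the seed, bases 2 to 8 counted from the 5′ end.
miR-103-3p: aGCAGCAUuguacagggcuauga
miR-107-3p: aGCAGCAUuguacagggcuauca
The difference is G22C, with the base of miR-103 first, counted from 1 at the 5′ end, so 22 bases are identical. Among 1679 mature mouse miRNAs in the RefSeq table, these 2 alone have the seed GCAGCAU. The array's names carry no arm, and the 3p arm was taken as the one named, since miRBase listed it without an arm when the array was designed. No other arm of these hairpins is on the array.

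The hairpins Mir103-1 and Mir103-2 give the same mature miR-103, at chr11:35782447-35782469 and chr2:131288103-131288125, both on the plus strand. They lie within the spans of Pank3 and Pank2 and on the same strand as these genes. Mature miR-107 lies at chr19:34820700-34820722 on the minus strand, within the span of Pank1, which is on that strand too. The signal of miR-103 thus sums 2 loci that an array of mature miRNAs cannot separate, and the pantothenate kinase transcripts themselves were not measured.

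Some relatives hold most of the seed letters of the pair. They are shown because a seed that starts 1 base off, or ends in another base, gives other target sites.
miR-15b-5p: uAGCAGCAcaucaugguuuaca
miR-322-5p: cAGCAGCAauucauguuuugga
miR-503-5p: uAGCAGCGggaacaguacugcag
miR-1906: uGCAGCAGccugaggcagggcu
In miR-103 the letters GCAGCA start at base 2. In miR-15a, miR-15b, miR-16, miR-195, miR-497 and miR-322 they start at base 3, and in miR-1906 at base 2. miR-503 lacks them in this window. Over whole sequences, its longest run shared with miR-103 has 6 letters, against 7 for each of the other 7 just named. For miR-1906 that run lies at its 3′ end, outside the seed.

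Each miRNA of the pair was measured by 2 probes of 10 spots on each array. Over the 6 arrays, spots were well above background, as the extraction software flags them, on all 60 unflagged spots of the brighter probe of miR-103 and on all 59 of the brighter probe of miR-107. The dimmer probe of miR-107 was so on all 56 unflagged spots and that of miR-103 on 40 of 58. The brighter probe of miR-103 averaged 136.6 and 68.7 units of processed signal on the 2 proliferative arrays, 90.1 and 96.5 on the prehypertrophic arrays and 56.2 and 79.1 on the hypertrophic arrays, before any scaling. The repeated spots of that probe had a coefficient of variation of 5.6% to 7.77% on each array, so the first proliferative array lay above the second by far more than the spread of spots. The brighter probe of miR-107 averaged 139.3 and 69.1 units on the proliferative, 92.5 and 106.9 on the prehypertrophic and 62.7 and 92.4 on the hypertrophic arrays, with a coefficient of variation of 3.92% to 8.27%. For both miRNAs the first proliferative array was the highest and the first hypertrophic array the lowest of the 6. Spots of an array share its RNA, so their spread is technical and says nothing of the spread between pools.

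**Figure D1:**
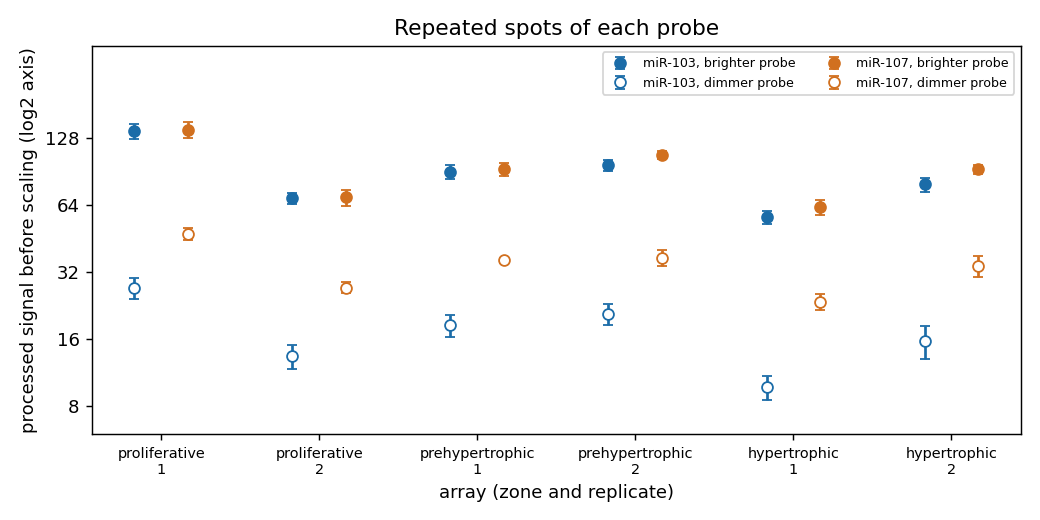
Mean processed signal of each probe of miR-103 (blue) and miR-107 (orange) on each array before scaling, on a log2 axis, with the SD over its unflagged spots as error bars (8 to 10 spots). The 4 probes move together from array to array, with the first proliferative array highest, at 136.6 and 139.3 units for the brighter probes. Heights of different probes are not comparable.

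The 2 probes of a miRNA kept nearly the same proportion to each other on every array. The brighter probe of miR-103 gave 82.3% to 85.2% of the summed signal of its 2 probes over the 6 arrays, and that of miR-107 gave 71.7% to 74.6%. The dimmer probe of miR-103 was close to the detection limit. Its signal was 0.772 times the lowest probe signal well above background on the first hypertrophic array, where 0 of 9 unflagged spots were well above background, and 2.41 times it on the first proliferative array. The brighter probes lay at 4.44 to 12.1 times that lowest signal for miR-103 and 4.95 to 12.4 times for miR-107, so neither brighter probe met the floor on any array. The files give no probe sequences, and the 2 mature RNAs are almost the same, so signal from either miRNA can reach the other's probes. How much it did was not tested.

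To compare arrays, each was scaled to the 75th percentile of the 342 probes well above background on all arrays, and signals were put on a log2 scale with a floor at 3.66. On this scale mmu-miR-103 measured 7.23 and 6.51 in the proliferative, 6.47 and 6.49 in the prehypertrophic and 5.80 and 5.90 in the hypertrophic zone. The hypertrophic arrays lay below all others, while the second proliferative array lay close to both prehypertrophic arrays and the first lay above them. mmu-miR-107 measured 7.26 and 6.52 in the proliferative, 6.51 and 6.64 in the prehypertrophic and 5.95 and 6.13 in the hypertrophic zone. Here too the hypertrophic arrays were lowest, and the proliferative and prehypertrophic arrays overlapped. As zone means, miR-103 stood at 6.87 ± 0.51, 6.48 ± 0.01 and 5.85 ± 0.08 in the proliferative, prehypertrophic and hypertrophic zones (SD, n = 2 each). For miR-107 these means were 6.89 ± 0.52, 6.57 ± 0.09 and 6.04 ± 0.12 (SD, n = 2 each). In this order of levels, the proliferative and prehypertrophic means do not differ beyond the spread of the proliferative arrays for either miRNA.

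**Figure D2:**
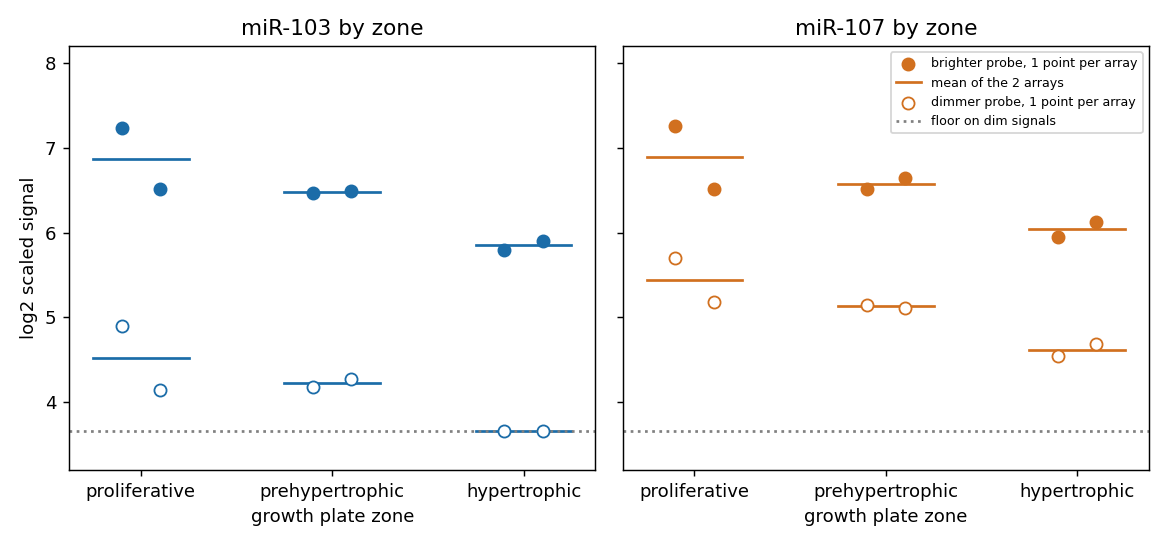
Log2 scaled signal of miR-103 (left) and miR-107 (right) by zone, with 1 point per array (replicate 1 left of replicate 2), filled for the brighter and open for the dimmer probe, lines at the means of 2 arrays and a dotted line at the floor of 3.66. Both probes of each miRNA were lowest on the hypertrophic arrays, and the dimmer probe of miR-103 met the floor there.

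Against the proliferative zone, the hypertrophic zone was lower for both miRNAs. The log2 difference was -1.02 (SE 0.29) for miR-103, so that the hypertrophic level was 0.493 of the proliferative level, and -0.85 (SE 0.30) for miR-107, a level of 0.556. After scaling, no hypertrophic array overlapped a proliferative array. The pairs of arrays differed by -1.43 to -0.61 for miR-103 and by -1.31 to -0.39 for miR-107. In the limma fit over all 226 tested miRNAs, miR-103 was among the 33 past an adjusted p of 0.05 in this comparison (14.6%) and miR-107 was not. The pair was chosen with this comparison known, so nothing is read from that count. Of the 226 miRNAs, 14 had a more negative difference than miR-103 and 27 a more negative one than miR-107, and the median difference over all of them was 0. The size depended on which proliferative array was used. Without the first the difference was -0.66 for miR-103 and -0.48 for miR-107, and without the second proliferative array it was -1.38 and -1.22. Each miRNA was past the threshold without the second proliferative array, and neither was without the first. For miR-103 the threshold was also missed without the first (-0.97) or the second hypertrophic array (-1.07) and without either prehypertrophic array (-1.02 each). The number of miRNAs past the threshold moved with single arrays too, to 2 and 1 without the first and the second hypertrophic array, 13 without the first proliferative array and 45 without the second.

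The hypertrophic zone also lay below the prehypertrophic zone, and this difference moved less when single arrays were left out. Between the hypertrophic and the prehypertrophic zone the difference was -0.63 (SE 0.29) for miR-103 and -0.53 (SE 0.30) for miR-107. All 4 pairs of arrays differed the same way, by -0.69 to -0.56 for miR-103 and by -0.68 to -0.38 for miR-107. Neither was past the threshold, against 3 of 226 miRNAs (1.33%), a count that was 1 without either hypertrophic array. The median difference of all tested miRNAs was -0.04, and 19 and 30 miRNAs had a more negative difference than miR-103 and miR-107. Leaving out each array in turn gave -0.68 to -0.57 for miR-103 and -0.62 to -0.44 for miR-107.

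From the proliferative to the prehypertrophic zone the difference was smaller, and it rested on the first proliferative array. The prehypertrophic zone differed by -0.39 (SE 0.29) for miR-103 and by -0.32 (SE 0.30) for miR-107. Without the first proliferative array the differences were -0.03 and 0.05, and without the second they were -0.75 and -0.69. Neither miRNA was past the threshold, against 5 of 226 (2.21%), and 43 and 68 miRNAs had a more negative difference. That count of 5 was 0 without either hypertrophic array, 3 without the second prehypertrophic array and 10 without the second proliferative array. The median of all tested miRNAs was -0.14 in this comparison, so the pair stood 0.25 and 0.18 below it. The comparisons of the hypertrophic and of the prehypertrophic zone with the proliferative zone share the proliferative arrays and are not independent.

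**Figure D3:**
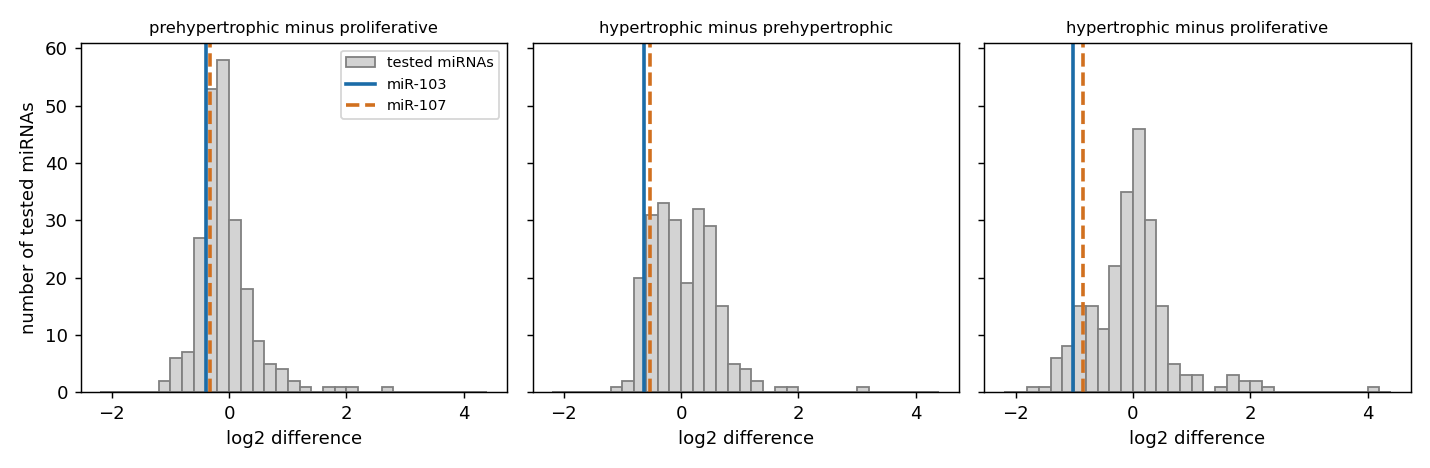
Log2 differences of all 226 tested miRNAs in the 3 zone comparisons, with bars counting miRNAs per bin of 0.2, and miR-103 (solid blue line) and miR-107 (dashed orange line). The pair lies on the negative side in each panel, farthest from 0 in the hypertrophic minus proliferative comparison, at -1.02 and -0.85.

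The 2 proliferative arrays disagreed more on this pair than on most miRNAs. The first exceeded the second by 0.72 log2 units for miR-103 and by 0.74 for miR-107. Of the 226 tested miRNAs, 39 had a wider gap between these arrays than miR-103 and 36 a wider gap than miR-107, and the median gap was 0.44. In the prehypertrophic zone the gap was 0.02 and 0.13 (first below second), with a median over all miRNAs of 0.21, and in the hypertrophic zone it was 0.11 and 0.17 (first below second), with a median of 0.28. The summed scaled signal of the cartilage marker list was 10400 and 6480 in the proliferative, 6840 and 6940 in the prehypertrophic and 3920 and 4920 in the hypertrophic arrays, so it was highest and lowest on the same arrays as the pair. Of its 6 markers 4 were well above background on all 6 arrays, and miR-675-5p met that criterion nowhere. The sum is carried by its brightest members, miR-140* and the chondrocyte miRNA miR-140. Of the 5 tested markers, 1 was past the threshold in the hypertrophic against the proliferative zone, miR-675-3p with a difference of -0.86 (limma adjusted p = 0.0422), beside 14.6% of all tested miRNAs. miR-675-3p was at the floor on both hypertrophic arrays, so this difference is set by the floor, gives no size and is not read as support. miR-455* had a difference of 0.37 in the same comparison and 0.86 between the prehypertrophic and proliferative zones, neither past the threshold.

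The blood and marrow list had a summed scaled signal of 27 and 42.8 in the proliferative, 45.2 and 47.8 in the prehypertrophic and 266 and 290 in the hypertrophic arrays. Most of the hypertrophic sum was miR-451, a miRNA of red blood cells, which measured 3.79 and 3.66 (the floor) in the proliferative, 4.84 and 4.74 in the prehypertrophic and 7.82 and 7.99 in the hypertrophic zone on the log2 scale. It was past the threshold in the hypertrophic against the proliferative zone (limma adjusted p = 1.91e-06), the only one of 2 tested markers of the list, beside 14.6% of all tested miRNAs. The other, miR-223, was not, with a difference of 0.88 (limma adjusted p = 0.0636). Against the prehypertrophic zone miR-451 alone of the 2 was also past it (limma adjusted p = 3.36e-05), beside 1.33%. From 1 to 3 of the 8 markers were well above background per array, and on no array did miR-144, miR-150, miR-155, miR-142-3p or miR-142-5p reach it. miR-486 reached it on 2 arrays and was not tested. It measured 4.01 on the first hypertrophic and 4.18 on the second proliferative array, and lay at the floor on all others, so it did not follow miR-451. Of 2 endothelial markers, miR-126-3p passed the background criterion on the hypertrophic arrays only and miR-126-5p nowhere, with sums of 34.7 and 47.2 in the hypertrophic arrays and 0 in all others. miR-126-3p entered the tests only through the hypertrophic arrays, and its values on the other arrays were at the floor. It was past the threshold in the hypertrophic against both other zones, but this is not read as support. Its differences give no size. Of 2 nerve markers, miR-124 passed the background criterion on 1 array of each zone, with sums of the list of 0.614 and 36.6 in the proliferative, 0.239 and 18 in the prehypertrophic and 24.7 and 1.39 in the hypertrophic arrays, and miR-9 on none. None of 4 skeletal muscle markers was well above background, nor was the liver marker miR-122. The part of these cell types in the levels of miR-103 and miR-107 was not tested.

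Position on the slide gave another split. Both hypertrophic arrays and the first proliferative array lay in row 1, and both prehypertrophic arrays and the second proliferative array in row 2. Within row 1 the hypertrophic arrays differed from the proliferative array by -1.38 for miR-103 and -1.22 for miR-107. Within row 2 the prehypertrophic arrays differed from the proliferative array by -0.03 and 0.05. The rows share no array of the hypertrophic or prehypertrophic zone, so between these zones alone the zone and the row cannot be told apart. With the row as a term in the fit the hypertrophic minus prehypertrophic difference was -1.35 and -1.27. Only the proliferative zone has an array in each row, so the row term rests on the gap between its 2 arrays. The sample titles carry numbers in runs of 3, each with 1 array per zone. Within the run of 13 to 15 the hypertrophic array differed from the proliferative array by -1.33 for miR-103 and -1.13 for miR-107, and within the run of 16 to 18 by -0.71 and -0.56. Against the prehypertrophic array it differed by -0.56 and -0.38 in the first run and by -0.69 and -0.68 in the second. The sign was the same within both runs for these 2 comparisons. The prehypertrophic array differed from the proliferative array by -0.76 and -0.75 in the first run and by -0.02 and 0.12 in the second.

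By the dimmer probe of miR-107, the hypertrophic minus proliferative difference was -0.82, the hypertrophic minus prehypertrophic difference -0.51 and the prehypertrophic minus proliferative difference -0.31, beside -0.85, -0.53 and -0.32 by its brighter probe. The dimmer probe of miR-103 met the floor on both hypertrophic arrays, so its differences of -0.87 from the proliferative and -0.56 from the prehypertrophic zone are set by the floor and give no size. Its prehypertrophic minus proliferative difference was -0.30, which also rests on a signal at the detection limit. On the second proliferative array 5 of its 10 spots were well above background, and it lay at 1.04 times the lowest probe signal well above background. Neither choice of probe turned a sign.

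By the brighter probes, miR-103 and miR-107 also kept nearly the same proportion to each other. With levels of different probes not comparable, only the change of their ratio was followed, which needs no scaling between arrays. Between the brighter probes, the log2 ratio of miR-107 to miR-103 was 0.17 higher in the hypertrophic than in the proliferative zone, 0.10 higher in the hypertrophic than in the prehypertrophic zone and 0.07 higher in the prehypertrophic than in the proliferative zone. The ratio varied within zones with an SD of 0.01 to 0.08. With the dimmer probe of miR-107 in place of its brighter one these changes were 0.20, 0.11 and 0.08, with an SD within zones of 0.02 to 0.14. With the dimmer probe of miR-103 the changes from the proliferative to the hypertrophic zone were larger. They were 0.26 against the brighter and 0.28 against the dimmer probe of miR-107. Between the hypertrophic and prehypertrophic zones they were 0.27 and 0.29, and between the prehypertrophic and proliferative zones -0.02 and -0.01. No floor enters these ratios, but that probe was near the detection limit on the hypertrophic arrays. Signal from either miRNA can reach the other's probes, so the ratio of the probes may be steadier than that of the RNAs. Neither this nor the change of the ratio was tested.

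**Figure D4:**
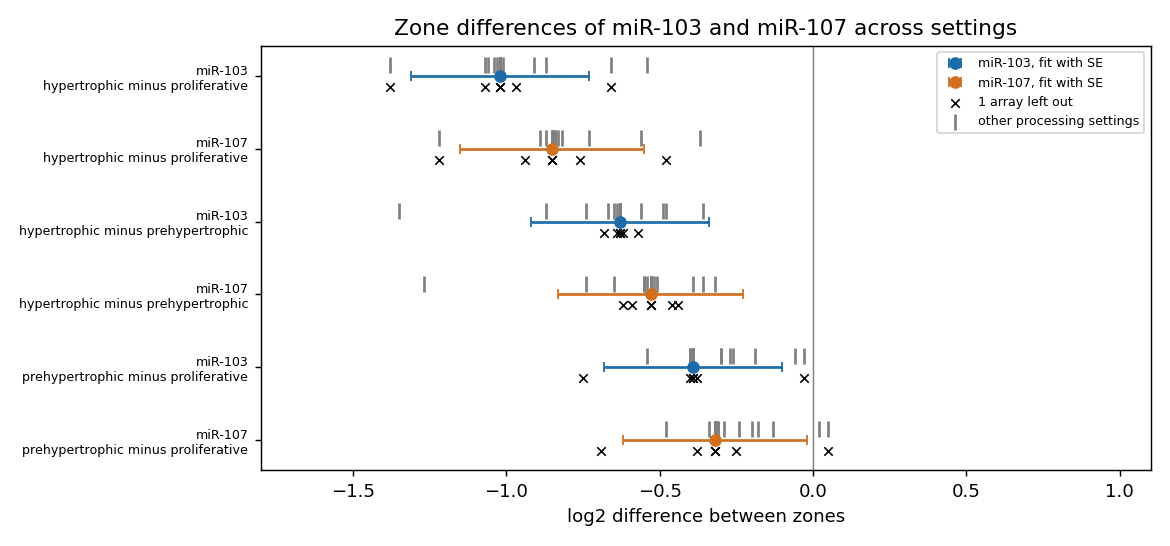
Log2 differences of miR-103 (blue) and miR-107 (orange) between zones, with SE bars from the fit of all 6 arrays, grey ticks for the other processing settings and crosses for fits with 1 array left out. Every value for the hypertrophic zone lies below 0, while the prehypertrophic minus proliferative values of miR-107 run from -0.69 to 0.05.

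The sign of the difference in hypertrophic zone means did not depend on the scaling, but its size and the separation of arrays did. Before scaling, the second hypertrophic array lay above the second proliferative array for both miRNAs. The brighter probes measured 79.1 against 68.7 units for miR-103 and 92.4 against 69.1 for miR-107. Without scaling, the hypertrophic minus proliferative difference was -0.54 for miR-103 and -0.37 for miR-107, while the median of all tested miRNAs was 0.45. Relative to that median the pair stood at -0.99 and -0.82, against -1.02 and -0.85 with the scaling used here. With the 75th percentile of all probes these relative values were -1.01 and -0.84, with median scaling -1.02 and -0.84, and with quantile normalization -1.08 and -0.90.

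The standard deviation over the 6 arrays was 0.51 for miR-103 and 0.45 for miR-107, with ranges of 1.43 and 1.31 log2 units. Ranked from the smallest SD, they were number 183 and 167 of 226, and the median SD was 0.35. A list of 10 miRNAs often proposed as reference RNAs beside miR-103 had 8 tested members with a median SD of 0.32. miR-423-5p had the smallest SD of these, at 0.14, followed by miR-24 with 0.26, miR-361 with 0.27 and miR-25 with 0.29. let-7a had 0.41, and miR-191 and miR-423-3p were well above background on no array. None of the 8 was higher past the threshold in any comparison. Between the hypertrophic and proliferative zones 7 had a negative difference and 1 was lower past the threshold, beside 14.6% of all tested miRNAs past it. let-7a, of a family known for roles in developmental timing, fell in the hypertrophic against the proliferative zone by 0.87 on the log2 scale (limma adjusted p = 0.0498). Of 20 alternative settings, 4 kept this call. The list's median differences were -0.14 between the hypertrophic and proliferative zones, -0.20 between the hypertrophic and prehypertrophic and -0.18 between the prehypertrophic and proliferative zones, beside 0, -0.04 and -0.14 for all tested miRNAs. These arrays had a wider spread for miR-103 and miR-107 than for each of the 8 tested members.

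Of the 9 miRNAs with related seeds, 8 were tested, and they did not share a direction. In the hypertrophic against the proliferative zone 2 rose, 1 fell and 5 did not pass, with a median of -0.24, beside 13 higher and 20 lower of all 226 tested miRNAs (14.6%) and a median of 0. miR-322, which corresponds to miR-424 in humans, rose by 2.30 (limma adjusted p = 0.000627) and its neighbour miR-503 by 1.70 (limma adjusted p = 0.00221), while miR-15b fell by 1.33 on the log2 scale (limma adjusted p = 0.0325). Of 20 alternative settings, 10 kept miR-15b past the threshold and 17 kept each of miR-322 and miR-503. The values of the others were 0.57 for miR-15a, -0.10 for miR-16, -0.37 for miR-1906, -0.46 for miR-195 and -0.81 for miR-497. Between the prehypertrophic and proliferative zones miR-322 and miR-503 rose by 2.10 and 2.0 (limma adjusted p = 0.00152 each), both also past the threshold in 15 of those 20 settings, while 6 did not pass, beside 2.21% of all tested miRNAs past the threshold. Between the hypertrophic and prehypertrophic zones none of the 8 passed, beside 1.33%. miR-761 was well above background on no array. The seed letters shared with miR-103 thus went with differences of either sign.

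The miRNAs whose profiles were most like those of the pair were found by the root mean square difference of log2 signals over the 6 arrays, each miRNA centred on its own mean, among 225 others. miR-107 was second nearest to miR-103, at 0.080 log2 units, and miR-103 was nearest to miR-107. The median over all others was 0.57 for miR-103 and 0.52 for miR-107. Besides miR-107, the 5 nearest to miR-103 included miR-196a at 0.071, a miRNA of the Hox clusters, miR-140* at 0.084, the other arm of the cartilage miRNA miR-140, miR-130a at 0.098 and miR-652 at 0.099. After miR-103, the nearest to miR-107 were miR-130b at 0.092, miR-140* at 0.093, miR-23b at 0.096 and let-7d at 0.100. All 7 were lower in the hypertrophic than in the proliferative zone, by differences of -1.06 for miR-130a to -0.65 for miR-23b. They share with the pair the first proliferative array as their highest. miR-196a measured 7.15 and 6.61 in the proliferative, 6.38 and 6.41 in the prehypertrophic and 5.82 and 5.91 in the hypertrophic zone. miR-140* measured 12.78 and 12.01 in the proliferative, 12.07 and 12.06 in the prehypertrophic and 11.22 and 11.60 in the hypertrophic zone. These miRNAs were picked for their likeness on these arrays, so their agreement is a description.

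**Figure D5:**
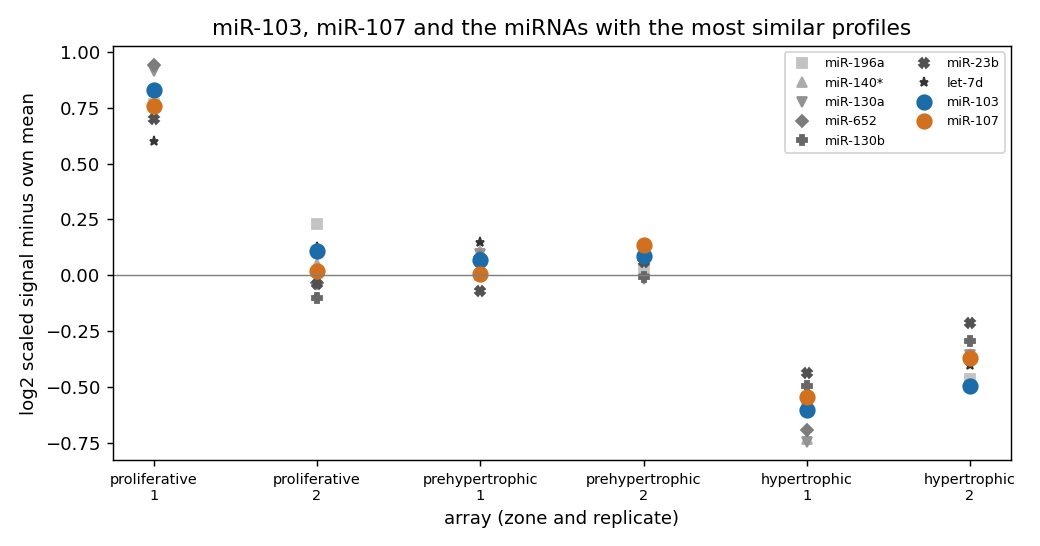
Log2 scaled signal of miR-103 (blue), miR-107 (orange) and the 7 miRNAs with the most similar profiles (grey symbols), each minus its own mean over the 6 arrays. All 9 are highest on the first proliferative array and lowest on the first hypertrophic array, and stay near 0 on the second proliferative and both prehypertrophic arrays.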

How the data were processed

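Spot brightness on 6 one-colour arrays was used as the deposited processed intensity, written by Feature Extraction 10.7.3.1 per the file headers. It equalled the files' background-subtracted signal within 1 percent on 100% of 40509 mouse spot values over 1. A log2 value table deposited by the authors, made with GeneSpring per the series' design text, was used as an alternative. Its scale was found by setting it against the scanner files: each value is log2 of the software's total gene signal (below 1 set to 1) less 1 constant per array, with departures of at most 1.3e-06. Its column medians ran from -4.94 to -4.25 and its 75th percentiles from -0.03 to 0.

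Control spots and flagged outlier spots were left out, and the remaining spots of a probe were averaged. The brightest probe stood for its miRNA. A probe was well above background where over 50% of its unflagged spots had that mark, and tests covered the 226 miRNAs for which this held on the pair of arrays of any zone. The floor of 12.66 scaled units is the median over arrays of the lowest signal well above background. The fit used limma 3.58.1 in R 4.3.3, zone as the only factor, 3 residual degrees of freedom and Benjamini-Hochberg adjustment within each comparison. The script was tested on simulated data. P-values set a difference against the spread between these pools, not between single mice. limma draws that spread towards the one of all tested miRNAs, with 7.19 prior degrees of freedom. The number of arrays limits the precision. All arrays shared 1 slide and scan, with 24.2% to 27.9% of spots well above background and 0 saturated. Members, lists and the rule for naming miRNAs (the pair, the 5 nearest profiles of each, 2 lists and cell type markers) were chosen with earlier results of these data known. The alternatives covered scaling, background correction, floor, flagged spots, filter, choice of probe, the value table, slide row, runs of title numbers and leaving out each array.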

Additional observations from a re-analysis of the deposited data

How the results depend on the processing

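Over 21 other settings, the hypertrophic minus proliferative difference was negative in all 21 for both miRNAs, at -1.38 to -0.54 for miR-103 and -1.22 to -0.37 for miR-107. The hypertrophic minus prehypertrophic difference was likewise negative in all 21, at -1.35 to -0.36 and -1.27 to -0.32, and never past the threshold. Several settings could not move these differences, so the 21 are not separate checks. The hypertrophic minus proliferative difference stayed at -1.02 and -0.85 with 2 times the floor, no floor, no filter or the block of title runs. The same held without either prehypertrophic array. The row block gave the values found without the second proliferative array. miR-103 was past the threshold in the outer comparison in 6 of 21 settings. It was lost with the 75th percentile of all probes (-1.01), no scaling (-0.54), quantile normalization (-1.07), median scaling (-0.91), 2 times the floor (-1.02), flagged spots kept (-1.04), no filter (-1.02), the total signal per miRNA (-1.03), the value table (-1.06) and its other probe (-0.87, set by the floor), and leaving out single arrays gave -1.38 to -0.66. miR-107 passed with the slide row as a block (-1.22), and leaving out single arrays gave -1.22 to -0.48. The prehypertrophic minus proliferative difference of miR-107 turned to 0.02 without scaling and to 0.05 with the row block or without the first proliferative array, with -0.69 to 0.05 over single arrays. The cause of these moves was not tested.

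The count of miRNAs past the threshold between the hypertrophic and proliferative zones was 33 (13 higher, 20 lower), 15 without scaling (15 higher and 0 lower), 19 (11 and 8) after quantile normalization, 12 (11 and 1) after median scaling, 11 (10 and 1) after scaling to the 75th percentile of all probes, 8 with 2 times the floor, 1 with no filter, 20 with the value table and 1 to 45 over single arrays. Between the prehypertrophic and proliferative zones it was 5, and 3 with the 75th percentile of all probes or median scaling, 1 without scaling, 0 with 2 times the floor or no filter (24 and 31 by limma at an unadjusted p under 0.05), 9 with no floor, 11 with the total signal, 10 with the value table and 0 to 10 over single arrays (0 without either hypertrophic array, where 24 had an unadjusted p under 0.05). Between the hypertrophic and prehypertrophic zones it was 3, and 5 without scaling or floor, 1 with 2 times the floor, no filter or the row block, 8 with the total signal and 1 to 3 over single arrays. With the runs of title numbers as a replicate block this last count was 5, and no call of miR-103 or miR-107 changed. With that block the hypertrophic minus proliferative difference was -1.02 for miR-103 and -0.85 for miR-107. The labels give no shared replicate numbers. Deviations of the runs correlated at 0.25 to 0.73 across miRNAs between zones. Normexp was run on the median signal with an offset of 50, a choice made after seeing that the files hold no mean signal, as was the other probe of miR-103.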

Other observations

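The authors' deposited log2 values, which rest on the total signal per miRNA and have a 75th percentile near 0 on each array, gave the same order of zone means. miR-103 stood at 2.38 and 1.54 in the proliferative, 1.72 and 1.82 in the prehypertrophic and 0.77 and 1.03 in the hypertrophic zone. miR-107 stood at 2.57 and 1.77 in the proliferative, 1.97 and 2.11 in the prehypertrophic and 1.16 and 1.45 in the hypertrophic zone. On this scale the second proliferative array lay below both prehypertrophic arrays for both miRNAs, while both hypertrophic arrays were below all others.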
